A study of Mus musculus with 16 samples.

Results

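The genes described here are 30 genes of cholesterol synthesis and of its control by the transcription factor SREBP2. They were chosen by name, and all 30 were found by symbol among the 55738 features of the count table of untreated cells and the 56980 features of the count table of the IFNγ experiment. They comprised 19 enzymes of the pathway from acetyl-CoA to cholesterol, counted with Ggps1, which branches off it to geranylgeranyl diphosphate. The others were 5 genes of the SREBP machinery (Srebf1, Srebf2, Scap, Insig1 and Insig2), 2 other SREBP targets (Stard4 and Lpin1) and 4 genes of sterol efflux, receptor turnover and oxysterol synthesis (Abca1, Abcg1, Mylip and Ch25h). RNA-seq was performed on 16 libraries of KPC1199, a mouse pancreatic ductal adenocarcinoma line derived from tumors that carried Pdx-cre and a mutant Trp53 allele, among others. All groups carried a lentiviral CRISPR-Cas9 vector under puromycin selection and were grown in DMEM with fetal bovine serum. The control cells (sgCtrL) carried a non-targeting guide, and the Sin3B knockout cells (Sin3Bsg1) carried a guide against Sin3B, a scaffold subunit of a histone deacetylase corepressor complex. In the untreated experiment 2 libraries were made of sgCtrL cells and 2 of Sin3Bsg1 cells. In the IFNγ experiment 3 libraries were made of each of 4 groups, sgCtrL and Sin3Bsg1 without IFNγ and sgCtrL and Sin3Bsg1 with 10 ng/ml IFNγ for 24 h. Because each genotype was represented by 1 guide, loss of Sin3B cannot be told apart from other differences between the sgCtrL and Sin3Bsg1 cells. The study's methods do not say whether these cells were pools or clones. The labels do not say whether replicates were separate cultures, so the p-values measure only the spread between these libraries, which may be technical.

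Cholesterol is made from acetyl-CoA through mevalonate, the isoprenoid units, squalene and lanosterol. The precursor protein SREBP2, encoded by Srebf2, is carried by SCAP from the endoplasmic reticulum to the Golgi when membrane sterols are low, is cut there, and then enters the nucleus and activates the genes of nearly every step. Insig proteins hold SCAP back when sterols are high, and Insig1 is itself an SREBP target, whereas oxysterols activate the liver X receptors, which induce Abca1, Abcg1, Mylip and Srebf1. Interferons are known to lower sterol synthesis in macrophages and to induce Ch25h, the cholesterol 25-hydroxylase, and the comparisons below give the levels of these genes in tumor cells with and without IFNγ and with and without Sin3B.

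Total counts per library ranged from 29683181 to 32311721 in untreated cells and from 18128055 to 27056903 in the IFNγ experiment. Sin3b itself fell in Sin3Bsg1 cells in all 3 genotype comparisons, with log2 fold changes of −1.28 in untreated cells, −1.24 without IFNγ and −1.22 with IFNγ. Irf1, a transcription factor induced by IFNγ, rose with IFNγ by 3.51 in sgCtrL and by 3.56 in Sin3Bsg1 on the log2 scale. Replicate 1 of sgCtrL with IFNγ stood apart from the other 2 libraries of its group, with a chi-square per gene of 23.2 and 19.5 against 4.12 between the other 2 and at most 9.63 in any other group, and the results that rest on it are given with and without it. Of 6 epithelial markers, Krt8, Krt18 and Krt19 were abundant in every library, Epcam and Krt7 were detected in all, and Cldn4 had 0 to 4 counts. The 6 macrophage markers summed to 66.6 to 94.2 CPM over all libraries, nearly all of it Cd14, with some Cd68, while Adgre1 was at 0 in every library and Ptprc, Csf1r and Lyz2 had at most 3 counts. Cd14 rose in Sin3Bsg1 in all 3 genotype comparisons, with log2 fold changes of 0.15, 0.20 and 0.41. The 6 fibroblast markers summed to 30.1 to 268.4 CPM, most of it Pdgfra and Pdgfrb, while Lum and Fap had at most 3 counts in every library and Dcn at most 6.

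The 250 bases before the start site of 7 members are shown because these genes carried the results below. Hmgcs1, Idi1, Msmo1, Cyp51 and Tm7sf2 are enzymes that were higher in untreated Sin3Bsg1 cells, Insig1 differed in opposite directions in the 2 experiments, and Abca1 was lower in every comparison. The sequences are from RefSeq on build GRCm38.p6, which is not the build of the count tables, and are written 5′ to 3′ in the direction of the gene. Capitals mark CCAAT or its reverse complement ATTGG, the letters bound by NF-Y, a partner of SREBP2, and TCACNCCAC on either strand, a sterol regulatory element.
Hmgcs1, chr13:119690101-119690350, strand +: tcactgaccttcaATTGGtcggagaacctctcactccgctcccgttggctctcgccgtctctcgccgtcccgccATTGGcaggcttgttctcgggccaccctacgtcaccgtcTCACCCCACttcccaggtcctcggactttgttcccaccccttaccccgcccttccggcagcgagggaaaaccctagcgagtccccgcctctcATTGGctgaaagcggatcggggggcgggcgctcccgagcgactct
Idi1, chr13:8885356-8885605, strand +: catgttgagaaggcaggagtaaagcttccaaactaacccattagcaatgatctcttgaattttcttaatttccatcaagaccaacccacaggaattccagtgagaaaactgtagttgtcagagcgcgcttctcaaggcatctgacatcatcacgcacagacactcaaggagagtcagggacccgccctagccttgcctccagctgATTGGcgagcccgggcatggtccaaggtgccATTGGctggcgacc
Msmo1, chr8:64733579-64733828, strand -: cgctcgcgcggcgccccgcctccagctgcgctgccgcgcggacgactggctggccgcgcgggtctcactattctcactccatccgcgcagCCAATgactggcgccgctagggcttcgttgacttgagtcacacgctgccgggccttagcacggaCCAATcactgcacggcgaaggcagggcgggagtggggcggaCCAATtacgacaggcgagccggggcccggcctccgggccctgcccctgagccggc
Cyp51, chr5:4104698-4104947, strand -: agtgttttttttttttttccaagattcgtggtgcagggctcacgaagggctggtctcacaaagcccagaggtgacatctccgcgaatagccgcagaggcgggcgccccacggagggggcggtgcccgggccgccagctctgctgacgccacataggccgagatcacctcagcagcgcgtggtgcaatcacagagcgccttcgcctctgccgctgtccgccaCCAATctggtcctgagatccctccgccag
Tm7sf2, chr19:6067851-6068100, strand -: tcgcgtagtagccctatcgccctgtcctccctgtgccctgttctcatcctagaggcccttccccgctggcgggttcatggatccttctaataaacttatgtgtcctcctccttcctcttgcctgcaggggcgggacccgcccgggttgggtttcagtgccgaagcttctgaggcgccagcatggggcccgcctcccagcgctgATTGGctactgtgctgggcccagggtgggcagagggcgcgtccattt
Insig1, chr5:28071162-28071411, strand +: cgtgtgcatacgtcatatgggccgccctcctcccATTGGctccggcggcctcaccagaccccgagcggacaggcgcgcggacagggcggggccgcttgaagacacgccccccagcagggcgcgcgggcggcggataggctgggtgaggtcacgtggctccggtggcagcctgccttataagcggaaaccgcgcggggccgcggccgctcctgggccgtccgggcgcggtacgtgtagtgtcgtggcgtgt
Abca1, chr4:53159896-53160145, strand -: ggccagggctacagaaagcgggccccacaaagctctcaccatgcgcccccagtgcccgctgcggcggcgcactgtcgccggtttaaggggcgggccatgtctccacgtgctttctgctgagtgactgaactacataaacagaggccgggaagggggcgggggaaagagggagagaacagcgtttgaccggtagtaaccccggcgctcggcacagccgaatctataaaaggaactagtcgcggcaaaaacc

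Promoters of 25 of the 30 members were in the RefSeq table, in windows of 300 bases that end 50 bases after the start site. Abcg1, Fdft1, Fdps, Sqle and Stard4 were not matched. Of the 19 promoters of 16 synthesis enzymes, 15 held CCAAT on either strand (78.9%), against 37.4% of all 32851 promoters in the table. The matches belonged to 15 of the 16 enzymes, and Acat2 was the enzyme without one. The letters TCACNCCAC occurred in the promoter of Hmgcs1 alone, as TCACCCCAC starting 137 bases before the start site, and in 1.24% of all promoters. Msmo1 held 3 CCAAT matches, at 160, 96 and 55 bases before the start site, and the Abca1 window held neither kind of letters. CACGTG, an E-box, occurred in 3 of the 19 enzyme promoters (15.8%), against 7.15% of all promoters. These letters were searched on both strands, and a match is only a description of the letters in these windows.

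Levels between genes were compared per length, as TPM, the length-scaled share of a library. In sgCtrL cells without IFNγ the most abundant members were Cyp51, the lanosterol demethylase, with a mean of 329 TPM, Fdps, the farnesyl diphosphate synthase, with 235 TPM, and Insig1 with 200.01 TPM. The lowest of the 27 members with more than a few counts were Tm7sf2, a sterol C14 reductase, with 16.9 TPM, Abca1, the cholesterol exporter, with 16.6 TPM, and Lpin1, a phosphatidate phosphatase, with 14.04 TPM. In untreated sgCtrL cells the order differed, with Srebf1 (171 TPM), Insig2 (163 TPM) and Fdps (134 TPM) at the top and Cyp51 at 95.3 TPM. The tables of the 2 experiments were made separately, so a level set across them is a description.

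The first comparison set these genes in Sin3Bsg1 against sgCtrL in untreated cells. Most enzymes of cholesterol synthesis were higher in Sin3Bsg1 cells: 14 of the 19 rose, none fell, and the largest rises were those of Tm7sf2, Idi1 and Msmo1, 1.76-fold, 1.55-fold and 1.51-fold. Summed over the 19 enzymes, the level was 890.5 ± 5.79 CPM (counts scaled to library size; SD, n = 2) in sgCtrL and 1098 ± 7.92 CPM in Sin3Bsg1. Abca1, which exports cholesterol, fell to 0.705 of its control level. Of the 27 members tested, 16 rose and 2 fell, at an adjusted p under 0.05 by edgeR's quasi-likelihood test with Benjamini-Hochberg adjustment over 14589 genes. Of all genes tested, 15.1% rose and 16% fell. The median log2 fold change was 0.25 over the enzymes and 0.18 over the 27 members, against 0.0024 over all genes. The calls of 15 of the 18 members held under every alternative run, and those of Sc5d, Mvd and Insig2 were lost in at least 1. The authors' values were not whole numbers for 14 of the 27 members, whose counts are therefore less certain where reads were split between features. Of these 14, 11 rose, and of the 13 with whole values 5 rose and 2 fell. The same limit holds in the IFNγ experiment, where the values of 12 members were not whole, among them Cyp51, Hmgcs1, Idi1, Fdps, Msmo1 and Tm7sf2.

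Of the 8 enzymes from acetyl-CoA to the isoprenoid diphosphates, 6 rose. Hmgcs1, the synthase that makes HMG-CoA, had 53.5 and 55.5 CPM in sgCtrL and 72.8 and 72.2 CPM in Sin3Bsg1, a log2 fold change of 0.41 ± 0.042 (SE, adjusted p = 1.35e-06). Idi1, the isopentenyl diphosphate isomerase, had 25.6 and 24.7 CPM in sgCtrL and 39.3 and 38.9 CPM in Sin3Bsg1 (log2 fold change 0.64 ± 0.061, adjusted p = 6.08e-07). Fdps had 89.4 and 90.5 CPM in sgCtrL and 125 and 117 CPM in Sin3Bsg1 (log2 fold change 0.43 ± 0.038, adjusted p = 2.16e-07). In these 3 genes both Sin3Bsg1 libraries lay above both sgCtrL libraries by a gap wider than either group. Pmvk, the phosphomevalonate kinase, had 15.99 and 14.9 CPM in sgCtrL and 20.6 CPM in both Sin3Bsg1 libraries (log2 fold change 0.41). Acat2, the thiolase of the first step, had 64.6 and 62.3 CPM in sgCtrL and 71.2 and 72.6 CPM in Sin3Bsg1 (log2 fold change 0.18). Mvd, the mevalonate decarboxylase, had 18.01 and 17.9 CPM in sgCtrL and 21.0 and 21.3 CPM in Sin3Bsg1 (log2 fold change 0.24). The groups did not overlap in these 3 genes either. Of all 14589 genes tested, 4656 were higher and 4583 lower in Sin3Bsg1 without overlap, so a lack of overlap was common. Mvk, the mevalonate kinase, did not pass the test, with 24.4 and 28.3 CPM in sgCtrL and 24.5 and 26.4 CPM in Sin3Bsg1. Ggps1, which extends farnesyl to geranylgeranyl diphosphate and so leads away from cholesterol, did not pass either (log2 fold change −0.10 ± 0.058).

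Squalene is formed by Fdft1, oxidized by Sqle and folded to lanosterol by Lss. Fdft1 rose from 39.4 and 39.1 CPM to 47.6 and 46.4 CPM (log2 fold change 0.26 ± 0.050, adjusted p = 0.000791). Sqle rose from 70.7 and 71.8 CPM to 83.8 and 86.2 CPM (log2 fold change 0.25 ± 0.038, adjusted p = 8.04e-05). Lss did not pass the test, and its groups overlapped, with 55.9 and 58.0 CPM in sgCtrL and 62.8 and 56.8 CPM in Sin3Bsg1.

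Of the 8 enzymes from lanosterol to cholesterol, 6 rose. Cyp51 had 182 and 183 CPM in sgCtrL and 242 and 238 CPM in Sin3Bsg1 (log2 fold change 0.40 ± 0.026, adjusted p = 6.95e-09). Msmo1, the methyl sterol oxidase, had 33.5 and 33.9 CPM in sgCtrL and 51.3 and 50.2 CPM in Sin3Bsg1 (log2 fold change 0.59 ± 0.051, adjusted p = 1.92e-07). Tm7sf2 had 10.99 and 9.63 CPM in sgCtrL and 19.2 and 17.1 CPM in Sin3Bsg1 (log2 fold change 0.82 ± 0.10, adjusted p = 9.68e-06), the largest log2 fold change among the members. Smaller rises were measured for the late enzymes of the pathway. Dhcr7, the 7-dehydrocholesterol reductase, rose from 27.7 and 27.9 CPM to 34.4 and 33.3 CPM. Ebp, the sterol isomerase, rose from 58.3 and 60.0 CPM to 67.1 and 68.6 CPM. Sc5d, the sterol C5 desaturase, rose from 50.5 and 51.8 CPM to 55.4 and 58.7 CPM, log2 fold changes of 0.29, 0.20 and 0.16 for these 3 genes. Nsdhl and Hsd17b7, which act in the removal of the methyl groups, did not pass the test (log2 fold changes 0.18 ± 0.078 and 0.10 ± 0.098).

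Among the genes of the SREBP machinery the differences were smaller. Srebf2 had 324 and 318 CPM in sgCtrL and 346 and 342 CPM in Sin3Bsg1 (log2 fold change 0.10 ± 0.023, adjusted p = 0.00326). Insig1 had 157 CPM in both sgCtrL libraries and 181 and 171 CPM in Sin3Bsg1 (log2 fold change 0.16 ± 0.032, adjusted p = 0.000863). Insig2, the isoform that is not an SREBP target in most cells, fell from 97.3 and 93.6 CPM to 88.1 and 89.7 CPM (log2 fold change −0.10 ± 0.037, adjusted p = 0.0456). Srebf1, Scap, Stard4 and Lpin1 did not pass the test, with log2 fold changes of 0.03, −0.09, 0.06 and −0.11. Abca1 had 175 and 171 CPM in sgCtrL and 122 CPM in both Sin3Bsg1 libraries (log2 fold change −0.50 ± 0.030, adjusted p = 2.17e-09). It is one of the liver X receptor targets named above, and the other 2 that belong to efflux and receptor turnover, Abcg1 and Mylip, were too low to test. Beside these differences, the summed level of the 6 epithelial markers was 4465 to 4488 CPM in sgCtrL and 5909 to 5963 CPM in Sin3Bsg1, and that of the 6 fibroblast markers 100.0 to 100.4 CPM and 30.1 to 33.2 CPM. Their part in the differences of the members was not tested.

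The same comparison was made in the IFNγ experiment, in the groups without IFNγ. Here 17 of the 19 synthesis enzymes did not pass the test. The summed level of all 19 was 1857.5 ± 18.9 CPM in sgCtrL and 1857.5 ± 26.8 CPM in Sin3Bsg1 (SD, n = 3). Cyp51 alone made up 591 and 574 CPM of these sums. Of the 27 members, Acat2 rose, and Abca1, Lpin1, Insig1 and Ggps1 fell. These counts of 1 and 4 stand beside 7.89% and 9.32% of all 14913 genes tested that rose and fell. The median log2 fold change of the enzymes was 0.015.

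**Figure D1:**
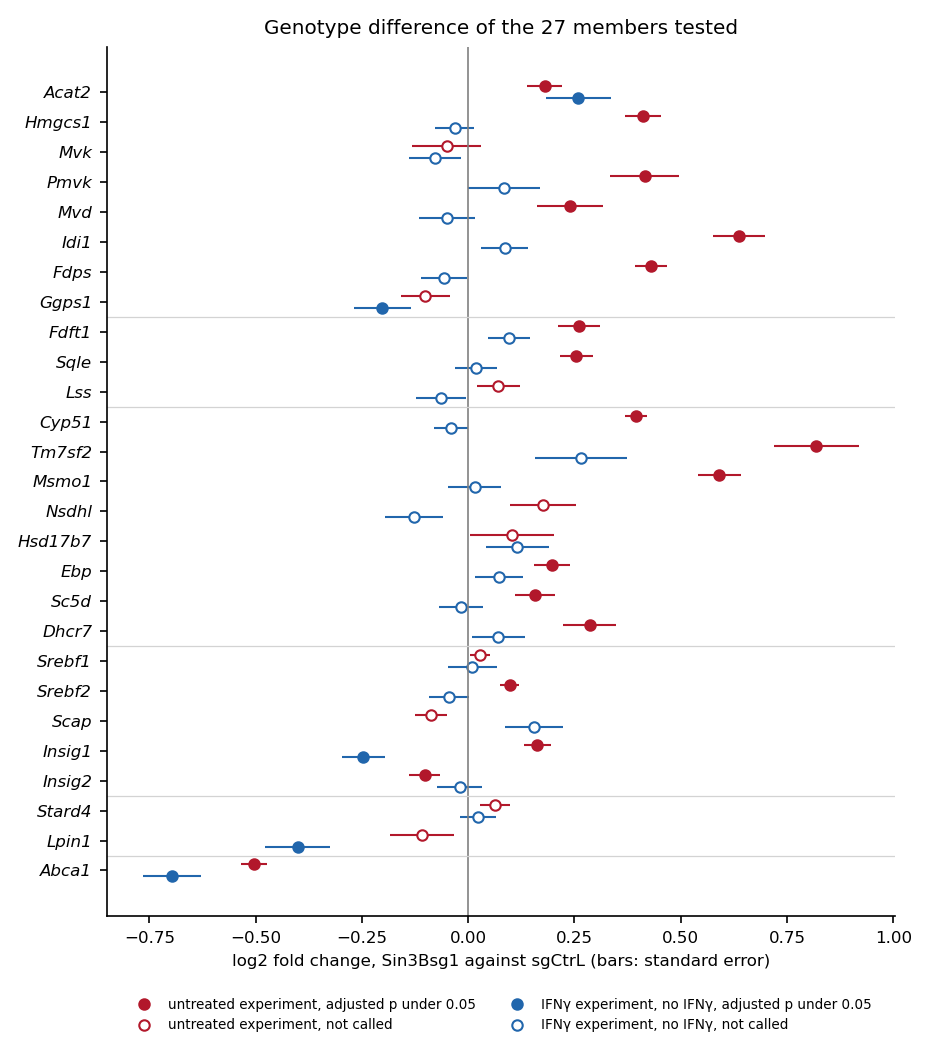
Log2 fold change of Sin3Bsg1 against sgCtrL (x axis) for the 27 members tested (y axis, grouped by role), in untreated cells (red, 2 against 2 libraries) and in cells of the IFNγ experiment without IFNγ (blue, 3 against 3). Bars are standard errors and filled points passed an adjusted p of 0.05 by edgeR. Of the enzymes at the top, 14 are filled in red and 2 in blue, while Abca1 is lower in both experiments.

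Abca1 had 79.0, 75.2 and 79.2 CPM in sgCtrL and 51.3, 46.2 and 46.3 CPM in Sin3Bsg1 (log2 fold change −0.70 ± 0.069, adjusted p = 3.21e-06). The groups lay far apart, as in untreated cells. Lpin1, a target of SREBP whose product makes diacylglycerol, had 36.9, 32.1 and 35.4 CPM in sgCtrL and 26.0, 26.9 and 26.1 CPM in Sin3Bsg1 (log2 fold change −0.40 ± 0.076, adjusted p = 0.00156). Insig1 had 248, 244 and 248 CPM in sgCtrL and 208, 211 and 202 CPM in Sin3Bsg1 (log2 fold change −0.25 ± 0.051, adjusted p = 0.00276), the opposite direction to untreated cells. Acat2 had 91.2, 89.6 and 92.0 CPM in sgCtrL and 108, 109 and 109 CPM in Sin3Bsg1 (log2 fold change 0.26 ± 0.076, adjusted p = 0.0267). Its difference was wide against the spread within these groups. Ggps1 had 43.2, 39.2 and 42.9 CPM in sgCtrL and 36.6, 34.6 and 37.6 CPM in Sin3Bsg1 (log2 fold change −0.20 ± 0.067, adjusted p = 0.0498). The calls of Acat2 and Ggps1 were lost under some alternatives, and those of Abca1, Lpin1 and Insig1 under none.

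Idi1, Msmo1, Cyp51 and Tm7sf2, which rose in untreated cells, did not pass the test here. Idi1 had 76.4, 76.9 and 75.7 CPM in sgCtrL and 79.4, 78.8 and 84.9 CPM in Sin3Bsg1 (log2 fold change 0.09 ± 0.055). Msmo1 had 103, 95.3 and 101 CPM against 101, 99.7 and 103 CPM (log2 fold change 0.02 ± 0.063). Cyp51 had 592, 583 and 597 CPM against 561, 575 and 586 CPM (log2 fold change −0.04 ± 0.040). The groups overlapped in Msmo1 and Cyp51. Tm7sf2 had 12.4, 9.93 and 11.6 CPM in sgCtrL and 15.1, 13.7 and 11.8 CPM in Sin3Bsg1, again with overlap (log2 fold change 0.26 ± 0.11, adjusted p = 0.114). Over the 27 members, 17 (63.0%) had the same sign in both experiments, and 63.1% of the 13848 genes tested in both did.

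**Figure D2:**
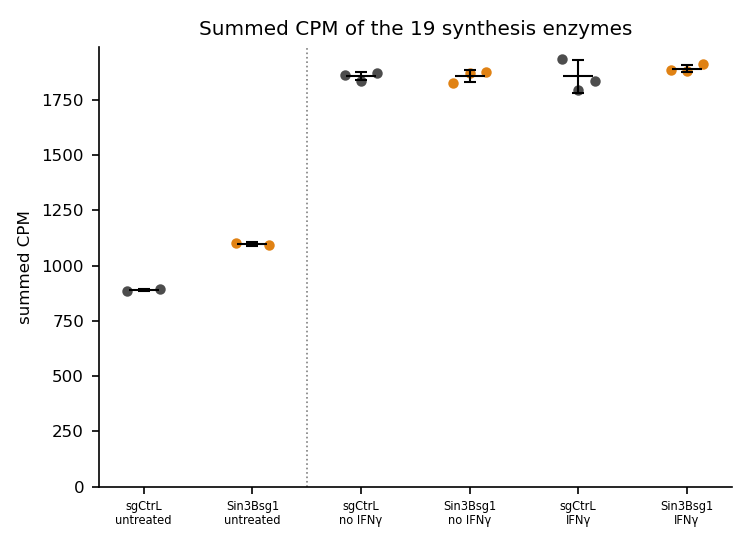
Summed CPM of the 19 synthesis enzymes (y axis, from 0) in each library (points) of the 6 groups (x axis), with the group mean and SD. The untreated sgCtrL libraries sit at 886 and 895 CPM and the untreated Sin3Bsg1 libraries at 1104 and 1092 CPM, and all libraries of the IFNγ experiment, a separate table, lie between 1794 and 1937 CPM.

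The difference between the experiments was itself tested in a joint fit of the 4 untreated libraries and the 6 libraries without IFNγ, a test added after the data had been seen. The genotype difference was larger in untreated cells for 10 members, the enzymes Msmo1, Idi1, Tm7sf2, Fdps, Hmgcs1, Cyp51, Nsdhl and Sqle and the SREBP genes Insig1 and Srebf2, and smaller for Scap. Of the 15264 genes tested, 6.80% were higher and 6.80% were lower by this test. The median of the 27 members was 0.18 on the log2 scale. Insig1 differed by 0.40 ± 0.046 (adjusted p = 4.19e-06), having risen in untreated cells and fallen in the IFNγ experiment. Scap, the carrier of SREBP, differed by −0.25 ± 0.059 (adjusted p = 0.00611), from 93.8 and 90.4 CPM in sgCtrL and 87.6 and 85.7 CPM in Sin3Bsg1 when untreated to 72.7, 76.5 and 70.8 CPM in sgCtrL and 80.2, 83.7 and 81.3 CPM in Sin3Bsg1 without IFNγ, but it passed the test in neither experiment alone. Pmvk (0.32 ± 0.11, adjusted p = 0.0501) and Abca1 (0.18 ± 0.062, adjusted p = 0.0551) did not pass. The calls of 7 of the 11 members held under every alternative, and those of Nsdhl, Tm7sf2, Srebf2 and Scap did not. The joint fit assumes 1 spread for both experiments. The biological coefficient of variation was 2.84% for the untreated libraries and 6.78% for all libraries of the IFNγ experiment. The latter value includes the libraries with IFNγ, which were not in the joint fit, so it is not the spread of those without IFNγ alone. Between replicates, the chi-square per gene was 2.43 and 2.76 in the untreated groups and 2.52 to 4.10 in the groups without IFNγ. The experiments also differed in the level of the pathway in the control cells, with Idi1 at 25.6 and 24.7 CPM in untreated sgCtrL cells and 75.7 to 76.9 CPM in sgCtrL cells without IFNγ. What differed in culture, date or library preparation between the experiments cannot be told apart from this difference.

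**Figure D3:**
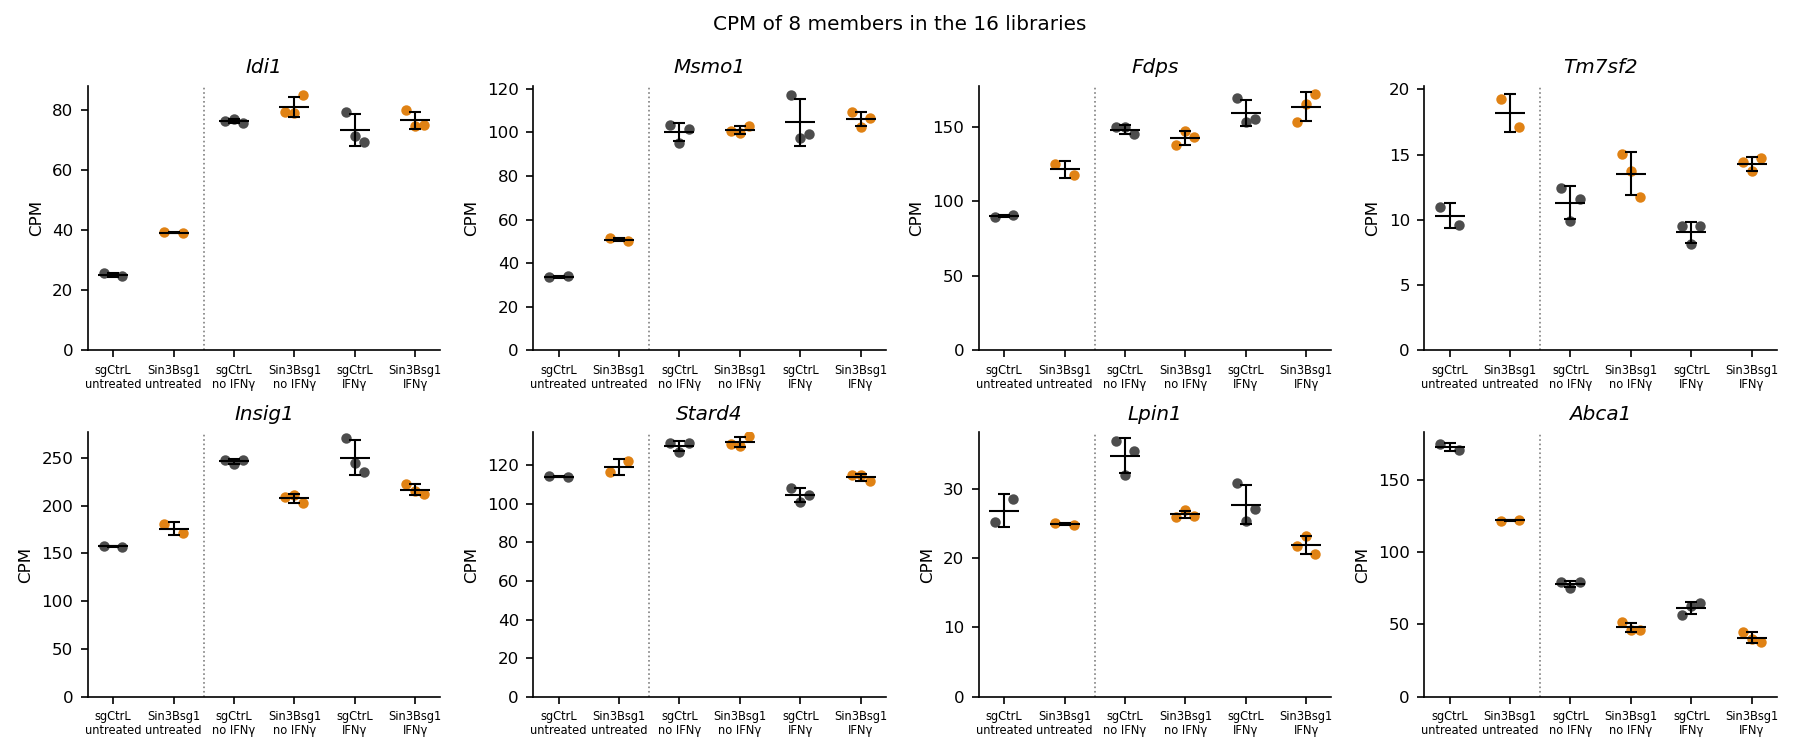
CPM (y axes, from 0) of 8 members in each of the 16 libraries (points; grey sgCtrL, orange Sin3Bsg1), with the mean and SD of each group; the dotted line separates the 2 tables. Idi1, Msmo1 and Fdps differ between the genotypes to the left of the line and hardly to its right, Insig1 differs in opposite directions, and Abca1 is lower in Sin3Bsg1 in each pair of groups.

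With IFNγ the genotypes were compared again. Of the 27 members, Tm7sf2 rose, and Abca1, Lpin1 and Insig1 fell, beside 8.62% of all genes that rose and 7.89% that fell. Tm7sf2 had 9.50, 8.12 and 9.51 CPM in sgCtrL and 14.4, 13.7 and 14.8 CPM in Sin3Bsg1 (log2 fold change 0.67 ± 0.11, adjusted p = 0.000486). Abca1 had 56.8, 62.8 and 64.7 CPM in sgCtrL and 44.8, 40.0 and 37.6 CPM in Sin3Bsg1 (log2 fold change −0.59 ± 0.070, adjusted p = 2.20e-05). Both genes were separated between the groups by more than their spread. Lpin1 had 30.8, 25.4 and 27.03 CPM in sgCtrL and 21.8, 23.3 and 20.7 CPM in Sin3Bsg1 (log2 fold change −0.34 ± 0.078, adjusted p = 0.00716). Insig1 had 271, 245 and 235 CPM in sgCtrL and 223, 215 and 212 CPM in Sin3Bsg1 (log2 fold change −0.21 ± 0.051, adjusted p = 0.00969). The call of Insig1 was lost when only the 6 libraries compared were fitted, and the other 3 calls held under every alternative. In Acat2, Srebf1, Scap and Insig1 the library that stands apart, replicate 1 of sgCtrL with IFNγ, was the highest of its group, for example with 107 CPM of Acat2 against 84.0 and 82.1 CPM. Without that library 9 members were called, 6 higher and 3 lower: the same 4, and Acat2 (log2 fold change 0.31), Scap (0.24), Nsdhl (0.23), Fdft1 (0.16) and Stard4 (0.16), all higher. Over all genes that fit called 1766 higher and 1180 lower of 15348, against 1286 and 1177 of 14913 with all libraries. The enzymes summed to 1856.5 ± 73.3 CPM in sgCtrL and 1892.5 ± 17.9 CPM in Sin3Bsg1 with IFNγ. The sgCtrL mean was raised by the library that stands apart, which had 1937 CPM against 1794 and 1838 CPM in replicates 2 and 3.

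The effect of IFNγ was then compared in each genotype. Most synthesis enzymes did not pass the test, 15 of 19 in sgCtrL and 16 of 19 in Sin3Bsg1, and the members that fell in both genotypes were Stard4, Lpin1 and Abca1. In sgCtrL cells 2 of the 27 members rose, Dhcr7 and Ebp, and 6 fell, Stard4, Lpin1, Abca1, Srebf2, Tm7sf2 and Mvd. Of all 14913 genes, 15.7% rose and 14.5% fell. In Sin3Bsg1 cells 3 members rose, Fdps, Mvk and Nsdhl, and 3 fell, Stard4, Lpin1 and Abca1, beside 16.1% of all genes that rose and 12.3% that fell. The log2 fold change was positive for 9 of the 19 enzymes in sgCtrL and for 12 in Sin3Bsg1, where its median was 0.071. Of the 27 members, 24 (88.9%) had the same sign in both genotypes, as did 79.8% of all genes. The summed fibroblast markers were 261.6 to 268.4 CPM without and 184.5 to 186.3 CPM with IFNγ in sgCtrL, and 223.8 to 234.1 CPM and 160.6 to 172.4 CPM in Sin3Bsg1. The summed epithelial markers were 2902 to 2937 CPM without and 3092 to 3607 CPM with IFNγ in sgCtrL, and 3049 to 3145 CPM and 4015 to 4282 CPM in Sin3Bsg1. These sums hide both directions. Of the 5 epithelial markers tested, 1 rose and 2 fell in sgCtrL, and 2 rose and 2 fell in Sin3Bsg1. Their median log2 fold changes were −0.28 and −0.17. The part of the fibroblast or epithelial markers in the differences of the members was not tested.

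Stard4, a carrier of cholesterol between membranes, had 132, 127 and 131 CPM in sgCtrL without IFNγ and 108, 101 and 105 CPM with it (log2 fold change −0.31 ± 0.043, adjusted p = 3.55e-05). In Sin3Bsg1 it had 131, 130.0 and 135 CPM without IFNγ and 115, 115 and 112 CPM with it (log2 fold change −0.22 ± 0.042, adjusted p = 0.0011). In neither genotype did the groups overlap. Of all 14913 genes tested, 3101 were higher and 3081 lower with IFNγ without overlap in sgCtrL, and 3620 and 3150 in Sin3Bsg1. Lpin1 fell by 0.33 in sgCtrL and by 0.26 in Sin3Bsg1 on the log2 scale (adjusted p = 0.004 and 0.0185), from the levels without IFNγ to those with IFNγ given above. Abca1 fell by 0.34 in sgCtrL and by 0.23 in Sin3Bsg1 on the log2 scale (adjusted p = 0.00136 and 0.0212). The lowest Abca1 levels of the 16 libraries were thus those of Sin3Bsg1 cells with IFNγ.

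Srebf2 fell with IFNγ in sgCtrL, from 381, 386 and 375 CPM to 337, 321 and 326 CPM (log2 fold change −0.22 ± 0.047, adjusted p = 0.00259). In Sin3Bsg1 it had 372, 378 and 356 CPM without IFNγ and 362, 336 and 323 CPM with it, with overlap (log2 fold change −0.12 ± 0.047, adjusted p = 0.0813). It passed the test as lower there under 6 of 18 alternatives, with adjusted p from 0.00639 to 0.242 over all 18. Insig1, Insig2, Scap and Srebf1 did not pass the test in either genotype. Insig1, itself an SREBP target, had log2 fold changes of 0.02 in sgCtrL and 0.06 in Sin3Bsg1.

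Among the enzymes the IFNγ differences were small and of both directions. Dhcr7 rose in sgCtrL from 30.1, 29.6 and 28.8 CPM to 36.0, 32.3 and 35.1 CPM (log2 fold change 0.22 ± 0.062, adjusted p = 0.0125). Ebp rose in sgCtrL from 51.0, 51.8 and 51.8 CPM to 59.4, 60.1 and 53.7 CPM (log2 fold change 0.16 ± 0.057, adjusted p = 0.0404). Both had no overlap between the groups. Mvd fell in sgCtrL from 23.7, 25.8 and 25.4 CPM to 23.6, 20.5 and 21.9 CPM (log2 fold change −0.19 ± 0.067, adjusted p = 0.0456). Tm7sf2 fell in sgCtrL, from 12.4, 9.93 and 11.6 CPM to 9.50, 8.12 and 9.51 CPM (log2 fold change −0.32 ± 0.11, adjusted p = 0.0428). These 2 differences were narrow against the spread, and the calls of Mvd, Tm7sf2 and Ebp were lost under at least 1 alternative. In Sin3Bsg1 cells Fdps rose from 138, 147 and 143 CPM to 153, 165 and 172 CPM (log2 fold change 0.20 ± 0.053, adjusted p = 0.0107). Mvk rose there from 27.4, 26.9 and 28.3 CPM to 32.96, 29.999 and 30.96 CPM (log2 fold change 0.19 ± 0.060, adjusted p = 0.03). Nsdhl rose from 33.3, 34.2 and 31.9 CPM to 34.9, 37.5 and 41.4 CPM (log2 fold change 0.20 ± 0.067, adjusted p = 0.0408). Of the 6 calls in Sin3Bsg1 cells, that of Stard4 alone held under every alternative. With the RLE size factors of DESeq2 in place of TMM, 1 member rose and 4 fell in Sin3Bsg1 cells, against 3 and 3, and over all genes 2113 rose and 2066 fell, against 2396 and 1836. Without replicate 3 of Sin3Bsg1 with IFNγ only 1 member was called there, and without replicate 1 of sgCtrL with IFNγ 9 were, 4 higher and 5 lower, beside 2824 and 2421 of all 15348 genes.

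Without replicate 1 of sgCtrL with IFNγ, 1 member rose and 9 fell in sgCtrL cells, beside 2282 and 2444 of all 15348 genes, against 2344 and 2164 of 14913 with all libraries. Acat2 (log2 fold change −0.14), Hmgcs1 (−0.15) and Scap (−0.15) then passed the test as lower, and Ebp (0.13) no longer passed as higher. Over the enzymes the counts were then 1 higher and 4 lower, against 2 and 2 with all libraries. Cyp51, Idi1, Msmo1 and Sqle did not pass the test in either genotype, with or without that library.

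**Figure D4:**
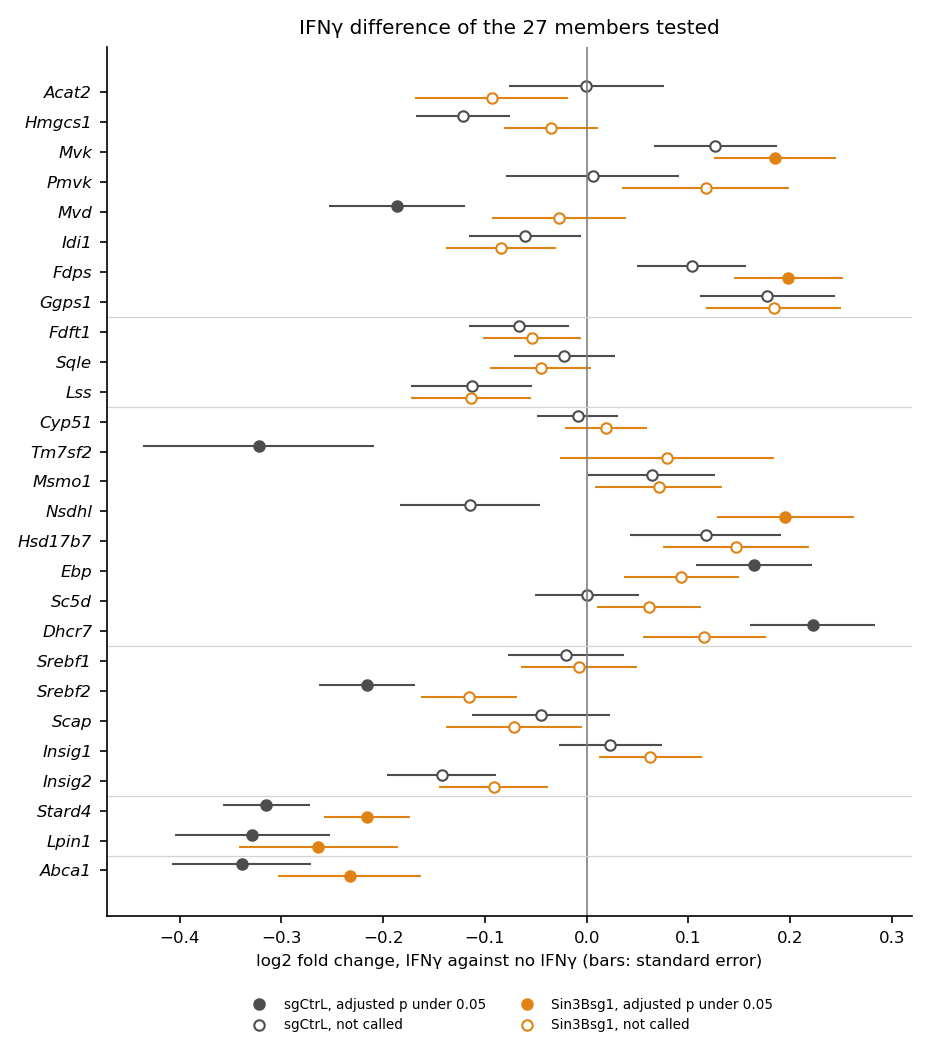
Log2 fold change of IFNγ against no IFNγ (x axis) for the 27 members tested (y axis, grouped by role), in sgCtrL (grey) and Sin3Bsg1 (orange), 3 against 3 libraries each. Bars are standard errors and filled points passed an adjusted p of 0.05 by edgeR. Stard4, Lpin1 and Abca1 at the bottom are filled and lower in both genotypes, while the enzymes lie on both sides of 0.

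The interaction of genotype and IFNγ tested whether the IFNγ difference itself differed between the genotypes. By edgeR 0 of the 27 members passed and 2 had an unadjusted p under 0.05, and by DESeq2 the counts were also 0 and 2. Of all 14913 genes, 17 passed, 0.114%. The 2 members were Nsdhl, whose IFNγ difference was 0.31 ± 0.096 higher in Sin3Bsg1 on the log2 scale (adjusted p = 0.578), and Tm7sf2, with 0.40 ± 0.15 (adjusted p = 0.821). Without replicate 1 of sgCtrL with IFNγ, 0 members passed and 5 had an unadjusted p under 0.05 by edgeR, and 33 of all 15348 genes passed. The interaction was then positive for 16 of the 19 enzymes, with a median of 0.064, against 13 and 0.028 with all libraries. So the IFNγ differences of single genotypes named above were not shown to differ between the genotypes.

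Abcg1, Mylip and Ch25h did not pass the filter on low counts. Abcg1, a cholesterol exporter of macrophages, had 0 to 3 counts in every library. Mylip, the ubiquitin ligase that degrades lipoprotein receptors, had 7 and 9 counts in untreated sgCtrL and 4 and 0 in untreated Sin3Bsg1. In the IFNγ experiment it had 3 to 11 counts in the sgCtrL libraries and 0 to 2 in the Sin3Bsg1 libraries. Ch25h, the enzyme known for its induction by interferons, had 0, 5 and 3 counts in sgCtrL without IFNγ and 6, 8 and 10 with it. In Sin3Bsg1 it had 14, 2 and 7 counts without IFNγ and 9, 7 and 9 with it. Mylip had fewer counts in every Sin3Bsg1 library than in the sgCtrL libraries of the same treatment and experiment, and these 3 genes are given as counts, without a test.

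The neighbouring genes of the pathway were counted in the same fits, as 2 lists that do not contain the members. Of the sterol neighbours, genes of late steps, storage, transport and sterol sensing, 16 of 18 were tested. Their counts stand beside the shares of all genes given above for each comparison, such as 15.1% higher and 16% lower in untreated cells. In untreated cells 5 rose and 3 fell in Sin3Bsg1, with Mbtps1, the Golgi protease that cuts SREBP, among the lower ones (log2 fold change −0.27). Without IFNγ 1 rose and 1 fell, the latter being Mbtps1 (−0.22). With IFNγ 3 rose and 2 fell, among them Soat1, which esterifies cholesterol for storage (−0.30), and Stard3, a late endosomal sterol carrier (0.17). IFNγ raised 5 and lowered 3 of these genes in sgCtrL, with Soat1 (0.64) and Pdss1 (0.46) the largest, and raised 4 and lowered 1 in Sin3Bsg1, with Soat1 (0.48) and Erg28 (0.47) the largest. Soat1 had 68.4, 64.5 and 60.4 CPM in sgCtrL without IFNγ and 110.1, 92.2 and 99.1 CPM with it.

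Of the SREBP1 fatty acid targets, 13 of 15 were tested, and their counts stand beside the same shares of all genes. In untreated cells 6 rose and 2 fell in Sin3Bsg1, with Acss2, a cytosolic acetyl-CoA synthetase (log2 fold change 0.45), and Mid1ip1, a partner of acetyl-CoA carboxylase (0.39), the largest. Without IFNγ none rose and 3 fell, among them Scd1, the stearoyl-CoA desaturase (−0.19), and Mid1ip1 (−0.18). With IFNγ 1 rose, Gpam (0.24), and 1 fell, Scd1 (−0.24). IFNγ raised 1 and lowered 5 of these genes in each genotype. In sgCtrL the largest differences were those of Acss2 (−0.35) and Fasn, the fatty acid synthase (−0.24), and in Sin3Bsg1 those of Acss2 (−0.76) and Elovl5, a fatty acid elongase that was higher (0.24). Fasn had 713, 689 and 691 CPM in sgCtrL without IFNγ and 585, 589 and 596 CPM with it, with no overlap. No gene of either list passed the test of the interaction, in which 0 of 16 and 0 of 13 were called.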

How the data were processed

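RNA-seq was performed on 16 libraries of KPC1199 cells. The authors deposited estimated counts per gene, not normalized and not all whole, in a table for each experiment. The study's methods give HISAT2 on mm9 and featureCounts, whereas the submitters' processing notes name fastp, HISAT2, StringTie, DESeq2 and mm39; versions, annotation and strand are not given in the sources used here. The columns of the non-targeting control are headed Lacz3. For untreated cells, 324 assembled loci (0.615 to 0.677% of a library) were left out. The authors' group means were not used.

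Counts were rounded and tested with edgeR 4.0.16 in R 4.3.3 (TMM, filterByExpr, glmQLFit and glmQLFTest, two-sided), with Benjamini-Hochberg adjustment over all genes tested and a threshold of 0.05. The untreated experiment was fitted on 4 libraries and the IFNγ experiment on 12, with a mean per group. Each standard error was obtained from the fold change and its F statistic. CPM used TMM library sizes, and TPM also the deposited gene lengths. The scripts were tested on simulated data. Alternatives were RLE size factors, no filter, at least 10 counts in every library, DESeq2 1.42.0, a replicate block, each replicate left out, and only the 6 libraries compared. Precision from counts covers counting error only.

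The members and lists were chosen with earlier results of these data known. All 30 members are accounted for, with the values of each library for members past the threshold in at least 1 comparison. Of each of the 2 neighbouring lists, the 2 called genes with the largest changes are named, if their mean reached 5 CPM. Results of some genes and of 1 searched motif are not reported here.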

Additional observations from a re-analysis of the deposited data

Results flagged for a closer look

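The genotype difference between Sin3Bsg1 and sgCtrL differed between the untreated experiment and the IFNγ experiment without IFNγ for 11 members, by edgeR's joint fit of both (added after the data were seen). On the log2 scale, untreated minus without IFNγ, it was larger by 0.57 for Msmo1, 0.54 for Idi1, 0.54 for Tm7sf2, 0.48 for Fdps, 0.43 for Hmgcs1, 0.43 for Cyp51, 0.40 for Insig1, 0.29 for Nsdhl, 0.23 for Sqle and 0.14 for Srebf2, and −0.25 for Scap. The fitted log2 fold change changed sign between the experiments for Insig1, Scap, Cyp51, Fdps, Hmgcs1, Nsdhl and Srebf2, of which Insig1 alone passed the test in both, and Scap and Nsdhl passed it in neither. Of all genes, 6.80% were called in each direction by this test.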

How the results depend on the processing

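No member called in any comparison reversed its direction under any alternative run. With 1 replicate left out, 15 to 17 members were called in untreated cells (18 with all), 3 to 6 between genotypes without IFNγ (5), 4 to 9 with IFNγ (4), 5 to 10 for IFNγ in sgCtrL (8), 1 to 9 for IFNγ in Sin3Bsg1 (6), 0 for the interaction (0) and 8 to 13 for the difference between the experiments (11). The highest counts of 9, 10 and 9 were those without replicate 1 of sgCtrL with IFNγ, and the lowest count of 1 was that without replicate 3 of Sin3Bsg1 with IFNγ. The genotypes without IFNγ gave 3 when replicate 1 or 3 of sgCtrL without IFNγ or replicate 1 or 2 of Sin3Bsg1 without IFNγ was left out. IFNγ in sgCtrL gave 5 without replicate 3 of sgCtrL without IFNγ or replicate 2 of sgCtrL with IFNγ. IFNγ in Sin3Bsg1 gave 2, 3 and 2 without replicate 1 or 2 of Sin3Bsg1 without IFNγ and replicate 2 of Sin3Bsg1 with IFNγ. IFNγ in sgCtrL called 5 members (1 higher, 4 lower) when only the 6 libraries compared were fitted; the cause was not tested. The other alternatives fitted on all libraries gave counts within 1.5 times of those reported.

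Replicate numbers were not used to pair the libraries in the reported fits. Same-numbered libraries correlated at −0.0286 to 0.119 in their deviations from the group means, and differently numbered ones at −0.134 to 0.0601. In untreated cells, with 2 libraries per group, these values can differ only in sign. Pairing was therefore not excluded. With the replicate number as a block, 18 members were called in untreated cells, 5 between genotypes without IFNγ, 5 with IFNγ, 8 for IFNγ in sgCtrL, 6 in Sin3Bsg1 and 0 for the interaction. Over all genes, the genotype comparison with IFNγ called 2463 genes, and 1500 with only the 6 libraries compared, and that without IFNγ 2567 and 3995. The interaction called 17 genes, 115 with no filter, 32 by DESeq2, and 14 (7 higher, 7 lower, against 12 and 5) with at least 10 counts in every library; leaving out 1 replicate gave 1 to 33, the highest without replicate 1 of sgCtrL with IFNγ.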
